A study of Homo sapiens with 6 samples.

Results

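The integrated stress response genes described here are 10 genes measured by RNA sequencing in HepG2, an established human liver carcinoma line: ATF4, ATF5, DDIT3, DDIT4, TRIB3, SESN2, ASNS, CEBPG, PPP1R15A and NUPR1. They were taken by symbol from the annotation column of the deposited log2 FPKM table and joined by Ensembl ID to the count table. All 10 were found among the 60504 genes of the count table and the 18404 genes of the log2 FPKM table, and all 10 were among the 15116 genes tested. Cells in 6-well plates received 10 µM oridonin, a plant diterpenoid, or 0.1% DMSO, the solvent, for 48 h, with 3 libraries per treatment. How much DMSO the oridonin wells held is not in the labels, which describe samples of 1 cell line without saying whether the cultures were separate, so that p-values measure the spread between these samples only, which may be technical. The comparison asks how the levels of these transcripts differed between oridonin and DMSO at a single dose and time.

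The integrated stress response begins when kinases sensing amino acid lack, misfolded protein in the endoplasmic reticulum, double-stranded RNA or heme lack phosphorylate the translation factor eIF2. Most protein synthesis then slows, while the mRNA of the transcription factor ATF4 is translated more, owing to upstream open reading frames in its leader. ATF4 pairs with other leucine zipper proteins and induces genes of amino acid supply, together with the phosphatase subunit PPP1R15A, which reverses the phosphorylation. RNA sequencing measures transcript levels, and neither the translation of ATF4 nor the phosphorylation of eIF2 was measured in the data used here.

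Total counts ran from 27674586 to 30739574 in oridonin libraries and from 22250202 to 29352396 in DMSO libraries, and the 10 genes had between 152 and 18566 counts per library. All 13 hepatocyte markers had counts, with summed levels of 18781 to 21284 CPM (counts scaled to library size) in oridonin and 28994 to 32834 CPM in DMSO libraries. Of the 13, 8 fell, TF, AHSG and ALB most clearly, at -0.96, -0.82 and -0.77 on the log2 scale. Another 2 rose, with FGB at 1.23. The shares over all genes tested were 21.3% lower and 20.6% higher. Markers of other cell types were low but not equal between treatments. The 11 B cell and plasma cell markers summed to 37.5 to 89.4 CPM in oridonin and 4.27 to 18.0 CPM in DMSO libraries, with MS4A1 at 0 in all of them. The 10 gut epithelial markers summed to 32.8 to 43.6 CPM in oridonin and 18.6 to 23.0 CPM in DMSO libraries. The 8 leukocyte markers summed to 10.5 to 11.02 and 6.47 to 8.45 CPM, and the 8 fibroblast and endothelial markers to 11.6 to 13.8 and 6.65 to 8.96 CPM, in oridonin and DMSO libraries in that order. Of the markers that could be tested, oridonin was called higher in 3, lower in 1 and neither in 4 of 8 B cell and plasma cell genes. All 6 tested gut genes and both tested leukocyte genes were called higher, and of 5 fibroblast and endothelial genes 2 were called higher, 1 lower and 2 neither. The part of these transcripts in the results that follow was not tested. In bulk RNA, fewer cells holding a transcript and less of it per cell cannot be told apart.

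Many genes whose promoters ATF4 binds carry a C/EBP-ATF response element. The letters TGATGNAA were looked for on either strand. The search ran from 250 bases before to 50 after each start in the RefSeq promoter table (GRCh38.p14). The table held 9 of the 10 genes, all but NUPR1, and ASNS and CEBPG had a match, against 4.46% of all genes and 3.62% of all windows in the table. Of the other genes listed as ATF4 or CHOP targets, the table held 56, and 18 of these had a match. Listed targets that the table did not hold were not searched. The windows below show the matches in ASNS and CEBPG, then in 5 target genes that fell with oridonin and 2 that did not pass the test. Capitals mark the match, and each window is 30 bases on the strand of its gene.
ASNS: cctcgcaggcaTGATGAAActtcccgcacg
CEBPG: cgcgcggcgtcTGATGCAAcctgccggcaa
JDP2: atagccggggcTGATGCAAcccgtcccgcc
MARS1: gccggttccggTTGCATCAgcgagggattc
GARS1: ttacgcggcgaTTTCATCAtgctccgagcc
IARS1: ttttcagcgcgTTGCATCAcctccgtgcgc
SLC1A4: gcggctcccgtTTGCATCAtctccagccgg
SLC1A5: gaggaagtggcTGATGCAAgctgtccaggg
SLC38A1: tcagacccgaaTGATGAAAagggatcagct
The ASNS window lies at chr7:97872458-97872487 on the minus strand, with the match beginning 68 bases before the start, and the CEBPG window at chr19:33374060-33374089 on the plus strand, with the match beginning 42 bases before the second of its listed starts. In MARS1, GARS1, IARS1 and SLC1A4 the match reads on the strand opposite to the gene. A match is a description of these letters and not evidence of binding, and a window without a match says nothing about binding elsewhere.

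With oridonin, 7 of the 10 genes fell, 1 rose and 2 did not pass the test. A gene was called at an adjusted p under 0.05 in edgeR's quasi-likelihood test, and of all genes tested 41.9% were called, 21.3% lower and 20.6% higher. The 7 genes that fell were ATF4, CEBPG, DDIT3, NUPR1, ASNS, TRIB3 and DDIT4, the gene that rose was PPP1R15A, and ATF5 and SESN2 were not called. The median log2 fold change of the 10 was -0.51, beside 0.011 over all genes tested. In the 7 genes that fell, all oridonin libraries lay under all DMSO libraries, and in the other 3 the treatments overlapped. Over all genes tested the treatments did not overlap in 51.6%, with oridonin lower in 25.6% and higher in 26.0%. With scaling by total counts alone, 65.5% of calls over all genes were upward, against 49.2% here, and the same 7 genes were called lower.

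**Figure D1:**
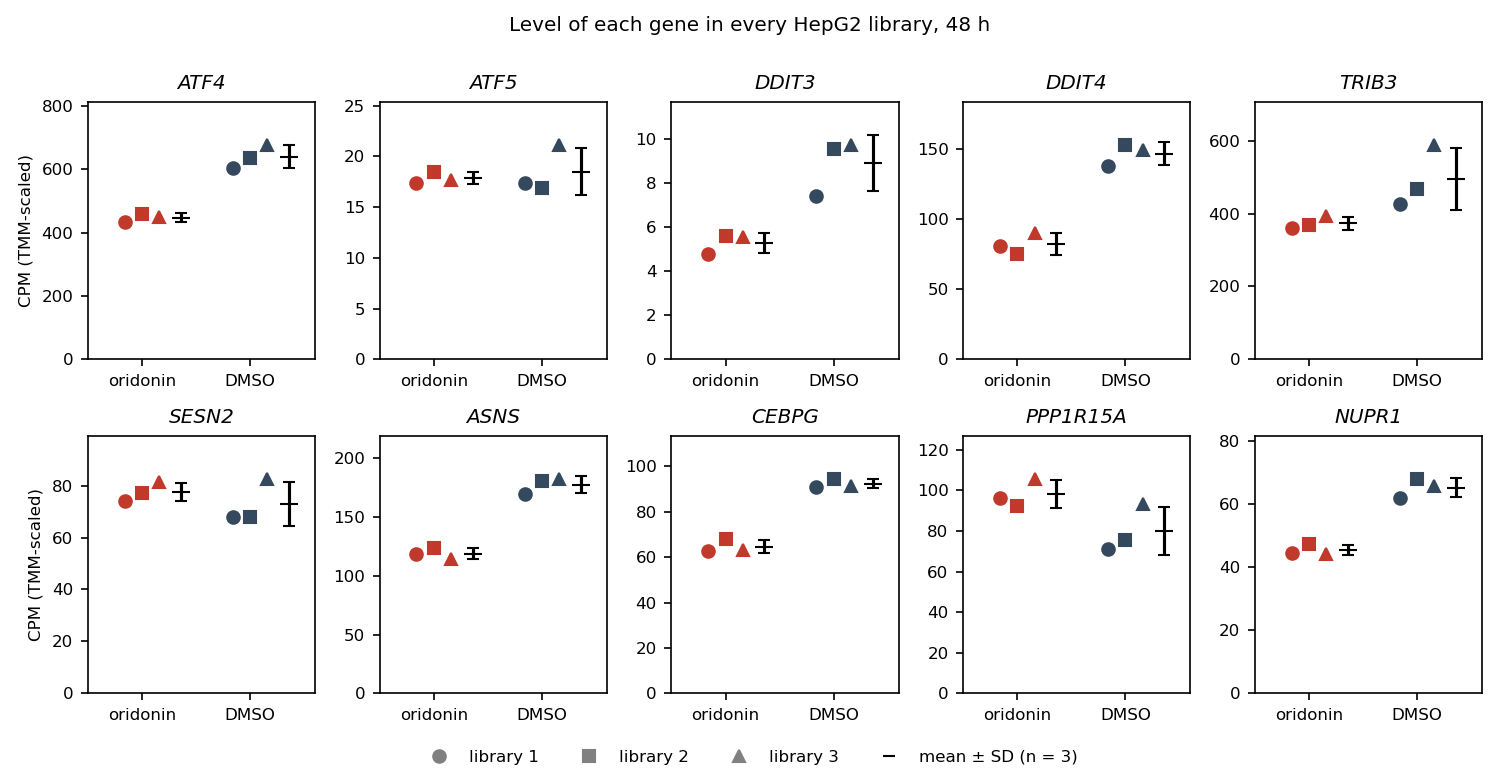
Level of each of the 10 genes in CPM, after TMM scaling, on a linear axis from 0, with oridonin libraries in red and DMSO libraries in dark blue, 1 symbol per library, and black bars for the mean ± SD (n = 3). The symbols of both treatments are apart in ATF4, DDIT3, DDIT4, TRIB3, ASNS, CEBPG and NUPR1 and overlap in ATF5, SESN2 and PPP1R15A.

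ATF4 itself (ENSG00000128272, hg38 chromosome 22, 39519695 to 39522685, plus strand) had 433, 458 and 450 CPM in oridonin libraries 1 to 3, against 604, 636 and 678 CPM in DMSO libraries 1 to 3. The lowest DMSO library was above the highest oridonin library. Its log2 fold change was -0.52 ± 0.051 (SE, n = 3 per group, edgeR adjusted p = 4.16e-07), so that the level fell by 30.1% with oridonin. Per gene length it was the most abundant of the 10 in both treatments, at 179 ± 6.49 FPKM in oridonin and 253 ± 16.8 FPKM in DMSO (SD, n = 3), and in DMSO it stood above 99.3% of the genes in the deposited log2 FPKM table. Within DMSO libraries the order of FPKM levels after ATF4 was TRIB3 (144), DDIT4 (70.8), ASNS (39.6), PPP1R15A (25.7), SESN2 (20.9), CEBPG (20.8), NUPR1 (11.4), DDIT3 (7.01) and ATF5 (6.22), and the libraries of SESN2 and CEBPG, of SESN2 and PPP1R15A, and of DDIT3 and ATF5 overlapped. Reads from ATF4 pseudogenes were few, with 0 to 6 counts per library in each of the 4 listed.

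Of the partners and relatives of ATF4, CEBPG and DDIT3 fell and ATF5 was not called. CEBPG (ENSG00000153879, hg38 chromosome 19, 33373330 to 33382686, plus strand), a leucine zipper protein that lacks an activation domain and pairs with ATF4, had 62.8, 67.8 and 63.3 CPM in oridonin and 91.1, 94.6 and 91.3 CPM in DMSO libraries. It showed little spread within either treatment, and edgeR gave a log2 fold change of -0.51 ± 0.052 (SE, adjusted p = 6.37e-07). DDIT3 (ENSG00000175197, hg38 chromosome 12, 57516588 to 57520517, minus strand) encodes CHOP, a factor that promotes cell death in prolonged stress. It was the least abundant of the 10 in CPM, with 4.77, 5.58 and 5.53 CPM in oridonin and 7.43, 9.55 and 9.75 CPM in DMSO libraries. These levels rest on 152 to 172 counts in oridonin and 163 to 272 counts in DMSO libraries, with a log2 fold change of -0.76 ± 0.12 (SE, edgeR adjusted p = 8.34e-05). The oridonin libraries were all below the DMSO libraries.

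Both DDIT3 and ATF5 overlap a more abundant gene on the opposite strand, and the strand setting of the counting is not given in the sources used here, so their values are uncertain. DDIT3 shares 355 of its 1307 exonic bases in GENCODE release 29 with MARS1, the methionyl-tRNA synthetase gene. MARS1 was at 241 ± 2.18 CPM in oridonin and 287 ± 13.1 CPM in DMSO (SD, n = 3) and fell by 0.25 on the log2 scale (edgeR adjusted p = 0.000483). ATF5 shares 626 of its 2954 exonic bases with NUP62, a nuclear pore gene at 85.0 ± 2.46 CPM in oridonin and 90.8 ± 3.78 CPM in DMSO (SD, n = 3).

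ATF5 (ENSG00000169136, hg38 chromosome 19, 49928702 to 49933935, plus strand), a close relative of ATF4 with a part in mitochondrial stress, had 17.4, 18.5 and 17.7 CPM in oridonin and 17.4, 16.9 and 21.2 CPM in DMSO libraries. The oridonin values lay within the DMSO range, which was widened by DMSO library 3. Its log2 fold change was -0.050, with a 95% confidence interval from -0.23 to 0.13 (edgeR adjusted p = 0.673). Scaling by total counts turned it to 0.031, and leaving out DMSO library 3 to 0.060. NUPR1 (ENSG00000176046, hg38 chromosome 16, 28532708 to 28539174, minus strand), a small chromatin-associated stress protein, had 44.6, 47.2 and 44.3 CPM in oridonin and 62.0, 68.1 and 65.8 CPM in DMSO libraries. Oridonin and DMSO libraries were well apart, with a log2 fold change of -0.52 ± 0.057 (SE, edgeR adjusted p = 1.37e-06).

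Among the targets of ATF4, ASNS and TRIB3 fell and PPP1R15A rose. ASNS (ENSG00000070669, hg38 chromosome 7, 97852118 to 97872542, minus strand), which makes asparagine, had 119, 123 and 114 CPM in oridonin and 169, 180.2 and 182 CPM in DMSO libraries. The groups did not overlap, and the level fell by 33.1% with oridonin, a log2 fold change of -0.58 ± 0.051 (SE, edgeR adjusted p = 1.15e-07). TRIB3 (ENSG00000101255, hg38 chromosome 20, 362835 to 397559, plus strand), a pseudokinase that binds ATF4 and CHOP and dampens their activity, had 360.0, 368 and 393 CPM in oridonin and 427, 468 and 590.4 CPM in DMSO libraries. DMSO library 3 was at 1.32 times the mean of DMSO libraries 1 and 2, and the groups did not overlap. Its log2 difference of -0.41 ± 0.11 (SE) passed the test (edgeR adjusted p = 0.0205). Without DMSO library 3 it was -0.26 and still called, but without any single oridonin library TRIB3 was not called, at an adjusted p of 0.0565 to 0.0631 (range over all 13 alternatives 9.16e-06 to 0.0631).

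PPP1R15A (ENSG00000087074, hg38 chromosome 19, 48872392 to 48876057, plus strand) encodes GADD34, the inducible subunit that brings protein phosphatase 1 to eIF2. It had 96.2, 92.2 and 106 CPM in oridonin and 70.9, 75.7 and 93.5 CPM in DMSO libraries, so that DMSO library 3 lay above the lowest oridonin library. The log2 difference was 0.29 ± 0.094 (SE), with an edgeR adjusted p = 0.0308, a level 22.3% higher with oridonin. The call was lost in 5 of 13 alternatives, among them 4 that left out 1 library each (oridonin 1 or 3, DMSO 1 or 2), at log2 fold changes of 0.21 to 0.30. PPP1R15A and ASNS changed places in level per gene length: in oridonin PPP1R15A had 30.1 to 34.5 FPKM and ASNS 25.8 to 27.9 FPKM, and in DMSO PPP1R15A had 22.6 to 30.3 FPKM and ASNS 37.5 to 41.1 FPKM.

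DDIT4 and SESN2 both encode inhibitors of mTORC1, the kinase complex of growth control; DDIT4 fell and SESN2 was not called. DDIT4 (ENSG00000168209, hg38 chromosome 10, 72273920 to 72276036, plus strand), also known as REDD1, had 81.0, 75.4 and 90.3 CPM in oridonin and 138, 153 and 149 CPM in DMSO libraries. No library of one treatment reached those of the other. Its log2 fold change of -0.84 ± 0.064 (SE, edgeR adjusted p = 3.79e-08) was the lowest of the 10, and 2.82% of all genes tested had a lower one. SESN2 (ENSG00000130766, hg38 chromosome 1, 28259527 to 28282491, plus strand), the leucine sensor sestrin 2, had 74.1, 77.2 and 81.2 CPM in oridonin and 68.0, 67.7 and 82.6 CPM in DMSO libraries. DMSO library 3 was above all oridonin libraries and the other DMSO libraries were below them. The log2 fold change was 0.089, with a 95% confidence interval from -0.064 to 0.24 (edgeR adjusted p = 0.344). SESN2 was called higher, at 0.19, without DMSO library 3 (edgeR adjusted p = 0.00894, range over 13 alternatives 0.00894 to 0.766) and, at 0.17, with total-count scaling.

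**Figure D2:**
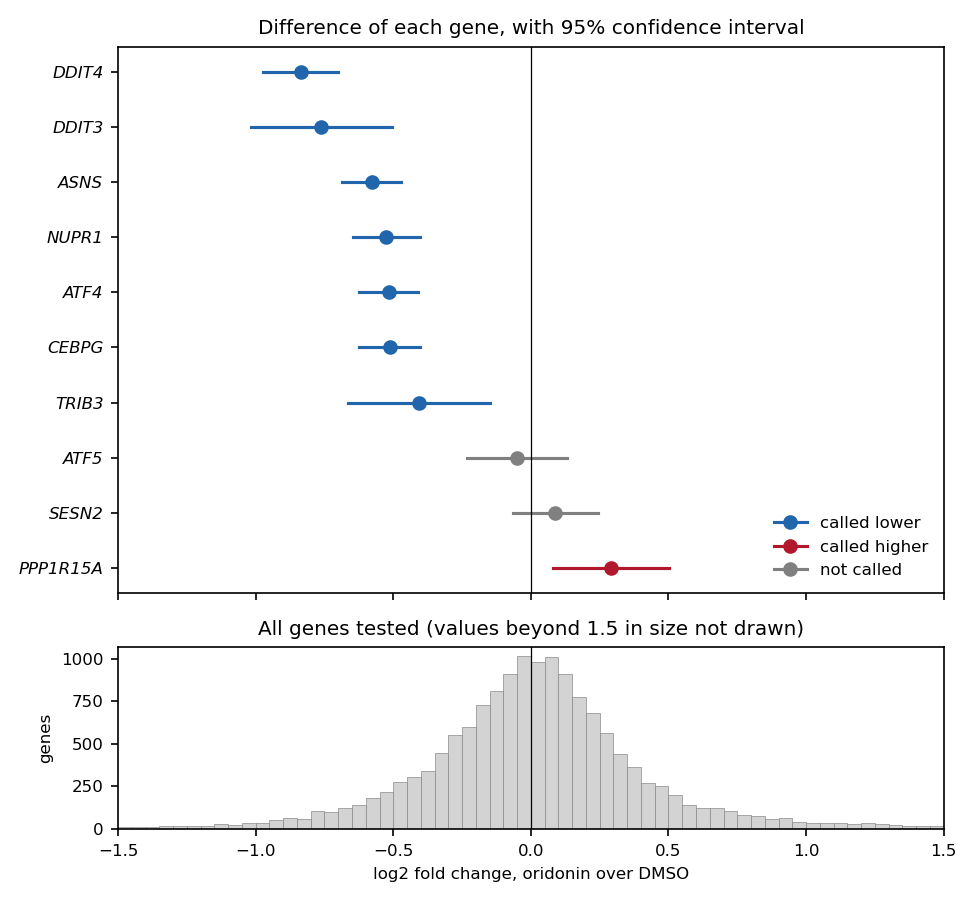
Upper panel, log2 fold change of each gene, oridonin over DMSO, as a point with its 95% confidence interval from edgeR, blue where called lower, red where called higher and grey where not called. Lower panel, a histogram of the same quantity over all genes tested. The intervals of DDIT4, DDIT3, ASNS, NUPR1, ATF4, CEBPG and TRIB3 lie below 0, that of PPP1R15A above 0, and those of ATF5 and SESN2 span 0.

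DMSO library 3 had the highest level among DMSO libraries in 7 of the 10 genes. How often this library was the highest over all genes tested was not counted. DMSO library 3 was at 1.22 to 1.32 times the mean of DMSO libraries 1 and 2 in TRIB3, PPP1R15A, ATF5 and SESN2. In the other 6 it was at 0.983 to 1.15 times that mean. The coefficient of variation over DMSO libraries was 11.7% to 17.2% in those 4 genes and in DDIT3, and 2.14% to 5.78% in the other 5. Over oridonin libraries it was 2.94% to 9.15% in the 10 genes.

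**Figure D3:**
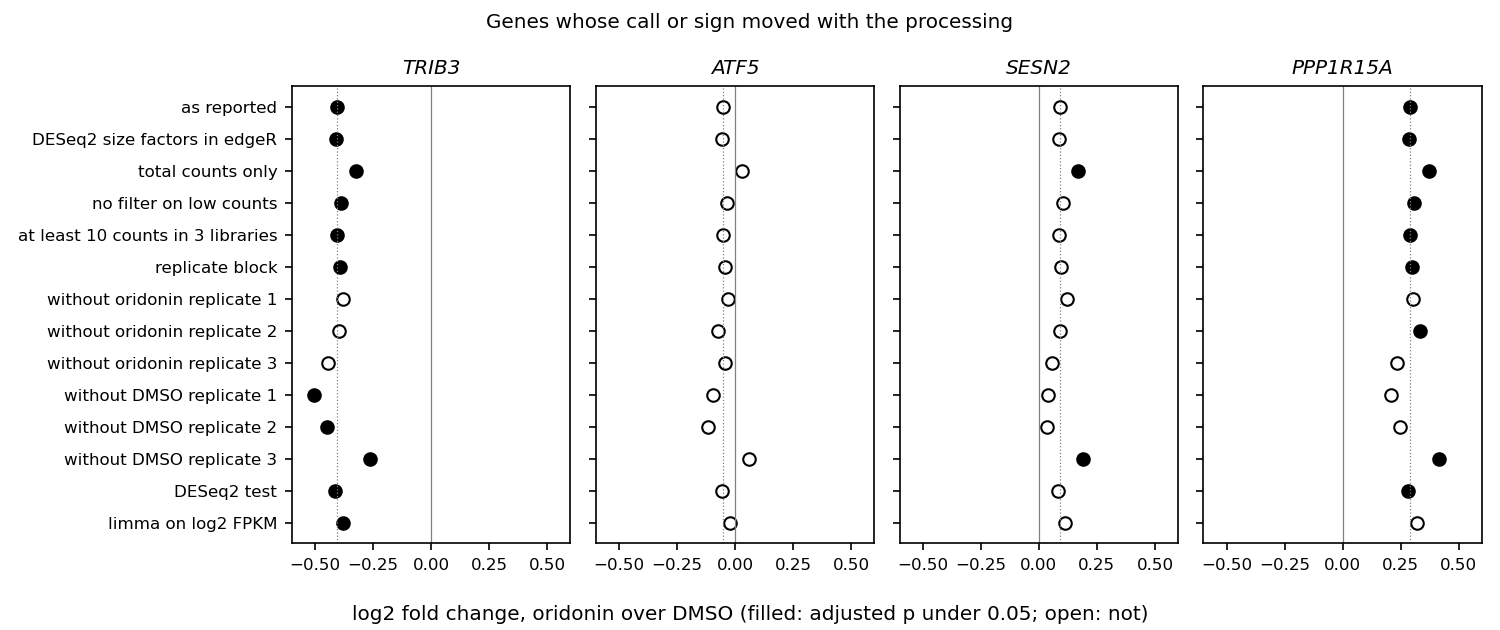
Log2 fold change, oridonin over DMSO, of TRIB3, ATF5, SESN2 and PPP1R15A as reported (top, dotted line) and under 13 other settings, with filled points for an adjusted p under 0.05 and open points otherwise. Without DMSO replicate 3 the values move right in all 4 genes, to -0.26 in TRIB3, 0.060 in ATF5, 0.19 in SESN2 and 0.42 in PPP1R15A.

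Of the kinases upstream of ATF4, EIF2AK3, EIF2AK1 and EIF2AK2 fell, and EIF2AK4 was not called. EIF2AK3, which encodes PERK, the kinase of endoplasmic reticulum stress, had 22.7 ± 0.370 CPM in oridonin and 31.5 ± 0.464 CPM in DMSO (SD, n = 3), a log2 fold change of -0.47 ± 0.062 (SE, edgeR adjusted p = 1.04e-05). EIF2AK1, the heme-regulated kinase HRI, fell at -0.25 and EIF2AK2, the double-stranded RNA kinase PKR, at -0.20, the last not called in 3 of 13 alternatives. EIF2AK4, the amino acid sensing kinase GCN2, was at 98.6 ± 3.23 CPM in oridonin and 92.6 ± 2.03 CPM in DMSO (SD, n = 3), with all oridonin libraries above all DMSO libraries. Its log2 fold change of 0.090 was not called, but it was called higher with a replicate block and, at 0.17, with total-count scaling. Of all 10 kinases and regulators listed, 4 fell, 1 rose and 5 were not called, beside 21.3% lower and 20.6% higher over all genes tested. The regulators called were DELE1, which relays mitochondrial stress to HRI, at -0.32, and GCN1, a partner of GCN2, at 0.13, which was not called in 4 of 13 alternatives.

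Of 14 genes listed as subunits of eIF2, of its exchange factor eIF2B and of the phosphatase, 5 fell, 4 rose and 5 were not called. The shares over all genes tested were 21.3% lower and 20.6% higher. The 5 that fell include EIF2A, which is not such a subunit. Total-count scaling gave 3 lower and 6 higher, limma on the log2 FPKM values gave 3 lower, and without oridonin library 1 there were 2 higher. PPP1CC, a catalytic subunit of protein phosphatase 1, fell at -0.40, EIF2S3, the gamma subunit of eIF2, at -0.29, and EIF2A, a separate initiation factor, at -0.34. EIF2B3, the gamma subunit of eIF2B, rose at 0.31. PPP1R15B, the constitutive counterpart of PPP1R15A, was at 69.3 ± 1.16 CPM in oridonin and 66.7 ± 1.49 CPM in DMSO (SD, n = 3), with all oridonin libraries above all DMSO libraries. Its log2 fold change of 0.056 was not called, but with total-count scaling it was called, at 0.14.

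Of 17 tested partners and repressors of ATF4, most of them leucine zipper factors, 9 fell and 3 rose, with a median log2 fold change of -0.21, and 5 were called higher with total-count scaling. CEBPG and DDIT3 are counted among the 9 that fell. The shares over all genes tested were 21.3% lower and 20.6% higher. CREB3L2, an endoplasmic reticulum transcription factor, fell to 159 ± 3.66 CPM in oridonin, against 216 ± 0.954 CPM in DMSO (SD, n = 3), and JDP2, a repressor of the AP-1 family, fell at -0.64. CREB3L3, a liver factor of lipid metabolism, rose at 1.26 from a low level, with 3.87 ± 0.647 CPM in oridonin and 1.63 ± 0.290 CPM in DMSO (SD, n = 3).

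Of 8 tested relatives of the 10 genes, 2 fell, 2 rose and 4 were not called. Over all genes tested 21.3% were called lower and 20.6% higher. CEBPA and CEBPB, relatives of CEBPG, fell at -0.57 and -0.44, and CEBPD was not called, at -0.16. TRIB1, a relative of TRIB3, rose to 196 ± 4.69 CPM in oridonin, against 149.9 ± 19.6 CPM in DMSO (SD, n = 3), a log2 fold change of 0.39 ± 0.075 (SE, edgeR adjusted p = 0.000996). TRIB2, at 0.13, and SESN1, at 0.054, were not called, and SESN3, at 1.25 ± 0.148 CPM in oridonin and 0.723 ± 0.0600 CPM in DMSO (SD, n = 3), rose at 0.78 but was not called in 4 of 13 alternatives. CEBPE had 5 to 9 counts per library, and DDIT4L and NUPR2 had none.

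Of 13 genes of amino acid synthesis that ATF4 induces, 12 fell and none rose, with a median log2 fold change of -0.50. Over all genes tested 21.3% were called lower and 20.6% higher. PHGDH, PSAT1 and MTHFD2, enzymes of serine and mitochondrial folate metabolism, fell at -0.83, -0.63 and -0.60, and the gene not called was GOT1, at 0.11. With total-count scaling, with a replicate block or without DMSO library 3, 1 gene of this list was called higher. Of 13 tRNA charging genes, 11 fell and none rose, with a smaller median of -0.26. XPOT, which exports tRNA from the nucleus, fell at -0.46, and the synthetase genes IARS1 and WARS1 each fell at -0.41.

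Amino acid transporters went both ways, with 5 of 11 tested lower, 3 higher and a median of -0.00026. The shares over all genes tested were 21.3% lower and 20.6% higher. SLC6A9, a glycine carrier, fell to 13.9 ± 0.589 CPM in oridonin, against 25.5 ± 2.15 CPM in DMSO (SD, n = 3), and SLC1A4 and SLC43A1, carriers of neutral amino acids, fell at -0.46 and -0.44. SLC7A11, the cystine importer, which NRF2 also induces, rose to 247 ± 13.6 CPM in oridonin, against 160 ± 1.75 CPM in DMSO (SD, n = 3), a log2 fold change of 0.63 ± 0.050 (SE, edgeR adjusted p = 3.84e-08).

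Of 17 tested signalling and cell death targets, 10 fell and 4 rose (median -0.40), beside 21.3% lower and 20.6% higher over all genes tested. INHBE, a secreted activin subunit made in liver, had 36.9 ± 2.45 CPM in oridonin and 105 ± 1.76 CPM in DMSO (SD, n = 3), and its log2 fold change of -1.51 ± 0.058 (SE, edgeR adjusted p = 7.36e-12) was the lowest of all genes in these lists. TXNIP, an inhibitor of thioredoxin and of glucose uptake, and VEGFA, the vascular growth factor, fell at -0.89 and -0.57. CDKN1A, the cell cycle inhibitor p21, rose at 1.07. Of 13 tested autophagy targets, 5 rose and 2 fell (median 0.080), beside 20.6% higher and 21.3% lower over all genes tested. SQSTM1, the cargo receptor p62, and ATG16L1 and BECN1, which act in autophagosome formation, were higher at 0.68, 0.61 and 0.22. WIPI1, which binds the forming membrane, was lower at -0.35. In 8 of 13 alternatives 1 autophagy gene was called lower in place of 2.

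**Figure D4:**
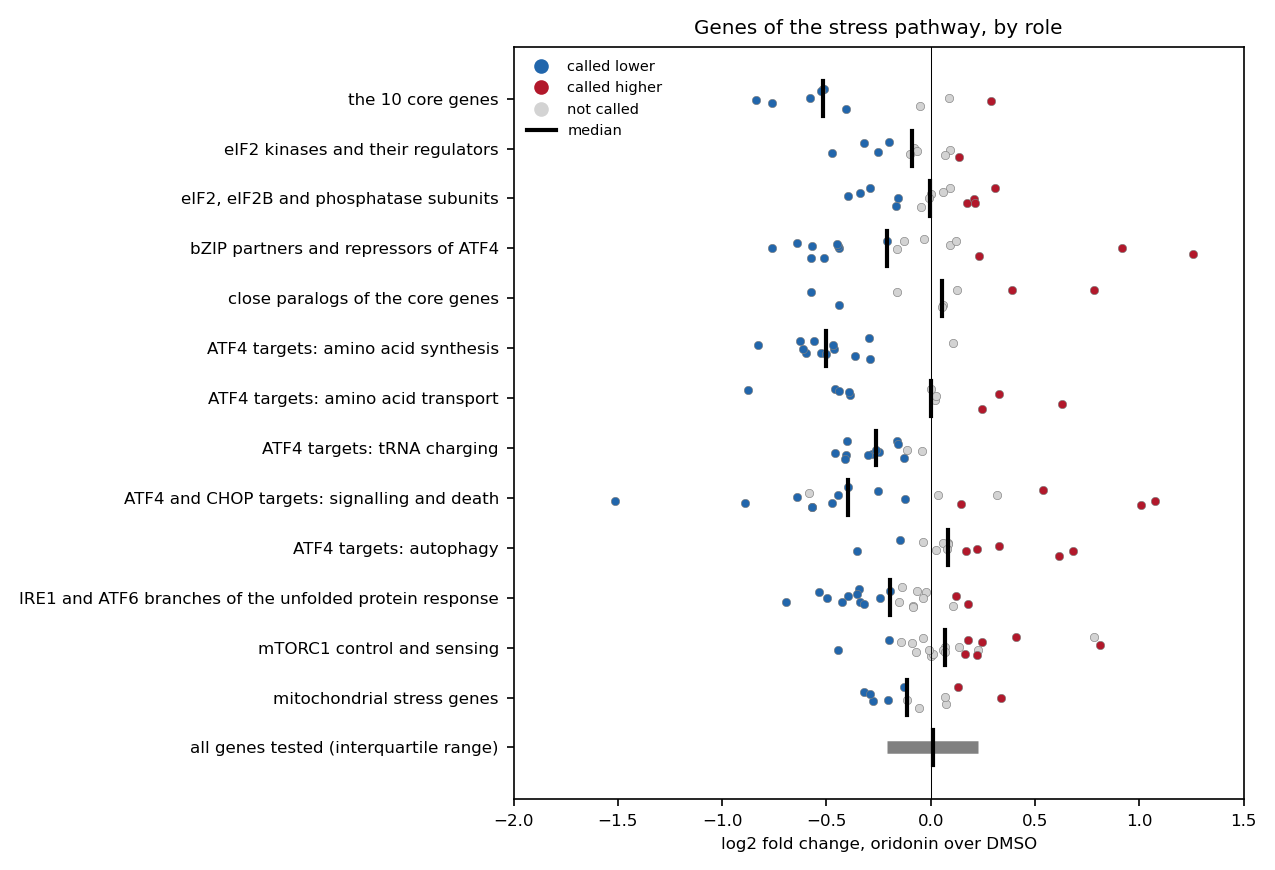
Log2 fold change, oridonin over DMSO, of each tested gene in lists of the stress pathway, blue where called lower, red where called higher and light grey where not called, with a black bar at the median of each list. The bottom row shows the interquartile range of all genes tested and their median. The core genes and the amino acid synthesis genes have the lowest medians, -0.51 and -0.50, and the autophagy genes the highest, 0.080.

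Target genes with and without the response element letters were both mostly lower. Only targets held in the promoter table could be compared. Of 17 such tested targets with a match, 11 fell, none rose and 6 were not called, with a median log2 fold change of -0.25. Of 37 such tested targets without one, 20 fell, 9 rose and 8 were not called, with a median of -0.13. Targets absent from the promoter table are in neither count, among them some that rose. Beside these counts, 21.3% of all genes tested were called lower and 20.6% higher. Of the genes shown above, JDP2, SLC1A4, IARS1, GARS1 and MARS1 fell at -0.64, -0.46, -0.41, -0.40 and -0.25, while SLC1A5 and SLC38A1 had values of 0.019 and 0.027. The difference between targets with and without a match was not tested.

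The branches of the unfolded protein response that run beside PERK also leaned lower, with 11 of 21 genes called lower, 2 higher and a median of -0.19. In 9 of 13 alternatives 0 or 1 of them was called higher. Over all genes tested 21.3% were called lower and 20.6% higher. XBP1, the transcription factor of the IRE1 branch, fell to 239 ± 11.9 CPM in oridonin, against 386 ± 12.8 CPM in DMSO (SD, n = 3), and the chaperone genes HSP90B1 and PDIA4 fell at -0.54 and -0.50. ATF6B, a relative of ATF6, rose at 0.18 and was not called in 4 of 13 alternatives. Of 11 mitochondrial stress genes, 5 fell and 2 rose (median -0.11), beside 21.3% lower and 20.6% higher over all genes tested, with DELE1 at -0.32, the chaperone genes HSPD1 and HSPA9 at -0.29 and -0.28, and TIMM17A, an import channel subunit, at 0.34. Without oridonin library 1 the mitochondrial list had 3 lower and 1 higher, and total-count scaling or limma gave 3 lower. Its higher count was 1 in 8 of 13 alternatives. In the mTORC1 list, 6 of 21 tested genes rose and 2 fell (median 0.069), beside 20.6% higher and 21.3% lower over all genes tested. Without oridonin library 1 the counts were 3 higher and 1 lower, and with total-count scaling 9 higher and 1 lower. Among them the GTPase genes RRAGD and RRAGC rose at 0.81 and 0.41, AKT1S1, an mTORC1 inhibitor, rose at 0.25, and EIF4EBP1, a repressor of translation that ATF4 induces, fell at -0.44. Over all these lists together, without the 10 genes, 70 of 158 tested genes fell (44.3%) and 32 rose (20.3%).

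The protein-coding genes most like ATF4 over the 6 libraries were SND1, IDH2, RPL10, RPLP0 and TFAP4, taken by Pearson's r of log2 CPM among 9009 genes averaging 10 CPM or more. Their r with ATF4 was 0.997 to 0.999, and 57 of the 9009 genes had an r over 0.99. The 6 libraries form 2 treatment groups, so this likeness describes a difference between treatments of like evenness and not covariation within a treatment. All 5 were called lower, by 0.26 to 0.49 in size on the log2 scale, a direction that follows from how they were picked.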

How the data were processed

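RNA-seq libraries of 3 oridonin and 3 DMSO samples of HepG2 were compared. The authors deposited raw counts per Ensembl gene and, for the 18404 genes with at least 1 count in every library, log2 FPKM values with gene lengths and coordinates. The submitters' processing notes name hg38 and DESeq2 1.10.1. Aligner, counting program, strand setting and annotation release: not given in the sources used here. Columns were tied to samples by the column names in the labels.

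Counts were tested with edgeR 4.0.16 in R 4.3.3 (filterByExpr, TMM, glmQLFit with robust estimation, glmQLFTest), with Benjamini-Hochberg adjustment over all 15116 genes. The SE is the log2 fold change's size over the square root of F. FPKM values are 2 to the power of the deposited log2 values, with no pseudocount. The fit was tested on simulated counts in which every gene had the same dispersion, a setting simpler than these data. That test therefore does not measure error rates here. Replicate libraries differed beyond sampling noise (chi-square per degree of freedom 7.21 to 9.74).

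Alternatives were DESeq2 1.42.0, its size factors or total counts in edgeR, other count filters, limma 3.58.1 on the log2 FPKM values, a replicate block, and leaving out each library. The 10 genes and all lists were chosen with earlier results of these data known. Named beside the 10 genes are the 4 eIF2 kinases, relatives of the 10 genes, overlapping tested genes, the 5 genes most like ATF4, and from each list, by smallest p, up to 3 genes called in its commoner direction and 1 called in the opposite one. GOT1, GARS1, SLC1A5 and SLC38A1 were named after their values were seen. Sequences are from RefSeq.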

Additional observations from a re-analysis of the deposited data

How the results depend on the processing

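ATF4, CEBPG, DDIT3, NUPR1, ASNS and DDIT4 were called lower under all 13 alternatives, with log2 fold changes between -0.91 and -0.43. Leaving out 1 library at a time gave 6 to 7 genes of the 10 called lower and 0 to 2 called higher, with -0.51 to -0.26 for TRIB3, 0.21 to 0.42 for PPP1R15A, 0.036 to 0.19 for SESN2 and -0.12 to 0.060 for ATF5. With total-count scaling ATF5 was at 0.031 and SESN2 at 0.17, and 2 genes of the 10 were called higher. With limma on the deposited log2 FPKM values PPP1R15A was at 0.32 and not called, so that 0 were called higher. The cause of these changes was not tested. Over all genes, between 5278 and 7689 were called, against 6332. Of 312 counts of calls per list and direction, 260 were within 1.5 times of the reported count and 52 were not. With the replicate number as a block, 7689 genes were called, and the same 7 genes fell and PPP1R15A rose. Deviations of same-numbered libraries correlated at 0.194, 0.0651 and 0.173, and each library correlated best with its own number, a hint from the data and not from the design. DDIT3, with 152 to 272 counts, is the gene whose precision depth limits most.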

Other observations

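Some genes often read as outputs of this response lay outside the naming rule and were chosen after their values were seen. GDF15, a secreted stress hormone, had 1338, 1358 and 1469 CPM in oridonin and 947, 1023 and 1372 CPM in DMSO libraries, with DMSO library 3 again the highest of its group and within the oridonin range (log2 fold change 0.32 ± 0.15, SE, edgeR adjusted p = 0.14). GDF15 was called higher with a replicate block and, at 0.49, without DMSO library 3. FGF21, the liver hormone of amino acid lack, had 1 to 5 counts in oridonin and 5 to 9 counts in DMSO libraries and was not tested. CHAC1, which degrades glutathione, had 0.723 ± 0.0894 CPM in oridonin and 1.08 ± 0.220 CPM in DMSO (SD, n = 3) and was not called. ATF3, a stress-induced repressor, had 13.3, 13.7 and 13.6 CPM in oridonin and 19.8, 19.6 and 20.8 CPM in DMSO libraries, and fell at -0.57. NFE2L2, which encodes NRF2, fell at -0.45, and HSPA5, the main chaperone of the endoplasmic reticulum, fell at -0.40.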
